A study of Bos taurus with 12 samples.

Results

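The genes described here are the bovine trypsin inhibitors PTI and LOC404103 and the mast cell genes KIT, FCER1A and HDC, measured in endometrium of Simmental heifers on an Affymetrix bovine array. The members are all probe sets whose gene symbol in the platform annotation is PTI, LOC404103, KIT, FCER1A or HDC. This gave 10 probe sets of 5 genes, 3 for the inhibitors and 7 for the mast cell genes, out of 24016 probe sets tested, of which 13292 carried a single symbol and covered 9155 genes. None of the members was lost to a filter on low signals, because none was applied. The genes were picked because the trypsin inhibitors differed in transcript abundance between the days, so the day 7 against day 3 values below are a description with no test. The differences between receptive and non-receptive endometrium were not used for the choice and were tested.

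The 12 RNA pools formed 4 groups of 3, namely receptive endometrium of day 7, non-receptive endometrium of day 7, receptive endometrium of day 3 and non-receptive endometrium of day 3 of the estrous cycle. Receptivity was assigned, according to the labels, from the pregnancy outcome that followed transfer of embryos produced in vivo. The labels give no treatment, age or genotype beyond the breed, and they name neither the number of animals in a pool nor whether pools of a group came from separate animals. A p-value here thus sets a difference between groups only against the spread of pools within groups, part of which may be technical.

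PTI is the bovine pancreatic trypsin inhibitor, also known as aprotinin, a small secreted protein of the Kunitz type that blocks trypsin and related serine proteases. LOC404103 is a close relative, known as the spleen trypsin inhibitor. In cattle, inhibitors of this kind are stored in mast cells, the tissue cells that carry the receptor for stem cell factor (KIT) and the high-affinity receptor for IgE (FCER1A is its alpha chain) and that make histamine with the enzyme histidine decarboxylase (HDC). The comparison asked whether the transcripts of the inhibitors and those of the mast cell genes followed the same course between the pools. In pooled tissue RNA, fewer cells of a type and less RNA per cell cannot be told apart.

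Probe sets of a gene are numbered in the order of their identifiers, which stand on the plot of the members' signals by pool. Signals are the deposited log2 values, so that a difference of 1 is a doubling. The pools of a group are given in the order 1, 2, 3, errors of group means are SD (n = 3 pools), and bright and dim order the signals of probe sets, not the transcript levels behind them, since probe sets differ in binding. Array medians ran from 6.64 to 6.76. The poly-A spike-in controls were brighter in pool 2 of every group but receptive day 7 (7.40 to 7.54) than in the other 9 pools (6.33 to 6.91). The gap between 3′ and 5′ actin probe sets, a sign of RNA integrity or labelling, was 3.11 in receptive day 3 pool 1 and 0.02 to 1.80 in the others.

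The PTI probe set read 2.96, 2.80 and 3.42 in the receptive day 7 pools and 4.91, 3.02 and 4.85 in the non-receptive day 7 pools. On day 3 it read 7.30, 7.06 and 6.33 in receptive pools and 6.91, 7.73 and 5.54 in non-receptive pools. All 6 pools of day 7 lay below the lowest pool of day 3. The mean was 3.66 ± 0.97 on day 7 and 6.81 ± 0.77 on day 3 (SD, n = 6 pools each), a difference of -3.15 on the log2 scale (SE 0.43), or a signal 8.89-fold lower on day 7. The table holds no detection calls, and if the dim day 7 signals lie at background the ratio is only a lower bound for the transcript. From low to high, the group means were 3.06 ± 0.32 (receptive, day 7), 4.26 ± 1.07 (non-receptive, day 7), 6.73 ± 1.11 (non-receptive, day 3) and 6.90 ± 0.51 (receptive, day 3). The pools of neighbouring groups in this order overlapped within each day and did not overlap between the days.

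LOC404103 probe set 1 comes from the same source sequence as the PTI probe set, per the platform annotation. The suffix _s in its identifier marks, by Affymetrix's convention, probes that can bind more than 1 transcript, so that the share of PTI and LOC404103 RNA in its signal cannot be told apart and the pair does not make independent readings. It read 5.0, 3.12 and 3.18 in receptive and 6.43, 4.25 and 5.98 in non-receptive pools of day 7. On day 3 the values were 8.43, 8.38 and 7.59 in receptive and 8.26, 8.95 and 6.78 in non-receptive pools. Again no pool of day 7 reached the lowest pool of day 3. The mean was 4.66 ± 1.39 on day 7 and 8.06 ± 0.77 on day 3 (SD, n = 6 each), a difference of -3.41 (SE 0.52), or 10.6-fold lower on day 7, a ratio of signals with the same limit. Group means were 3.77 ± 1.07 (receptive, day 7), 5.55 ± 1.15 (non-receptive, day 7), 8.0 ± 1.11 (non-receptive, day 3) and 8.13 ± 0.47 (receptive, day 3), the same order as for PTI.

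LOC404103 probe set 2 was designed on the reference transcript of that gene and held nearly level. It read 7.04, 7.32 and 7.69 in receptive and 7.60, 7.37 and 7.32 in non-receptive pools of day 7, and 7.20, 7.04 and 7.26 in receptive and 7.59, 7.52 and 7.30 in non-receptive pools of day 3. The whole range over 12 pools was 0.65, against 5.83 for the other probe set of the same gene symbol. Its mean was 7.39 ± 0.23 on day 7 and 7.32 ± 0.20 on day 3 (SD, n = 6 each), a difference of 0.07 (SE 0.12, 95% interval -0.19 to 0.34). The probe sets that share the symbol LOC404103 thus disagreed, and no direction is given for LOC404103 as a gene.

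**Figure D1:**
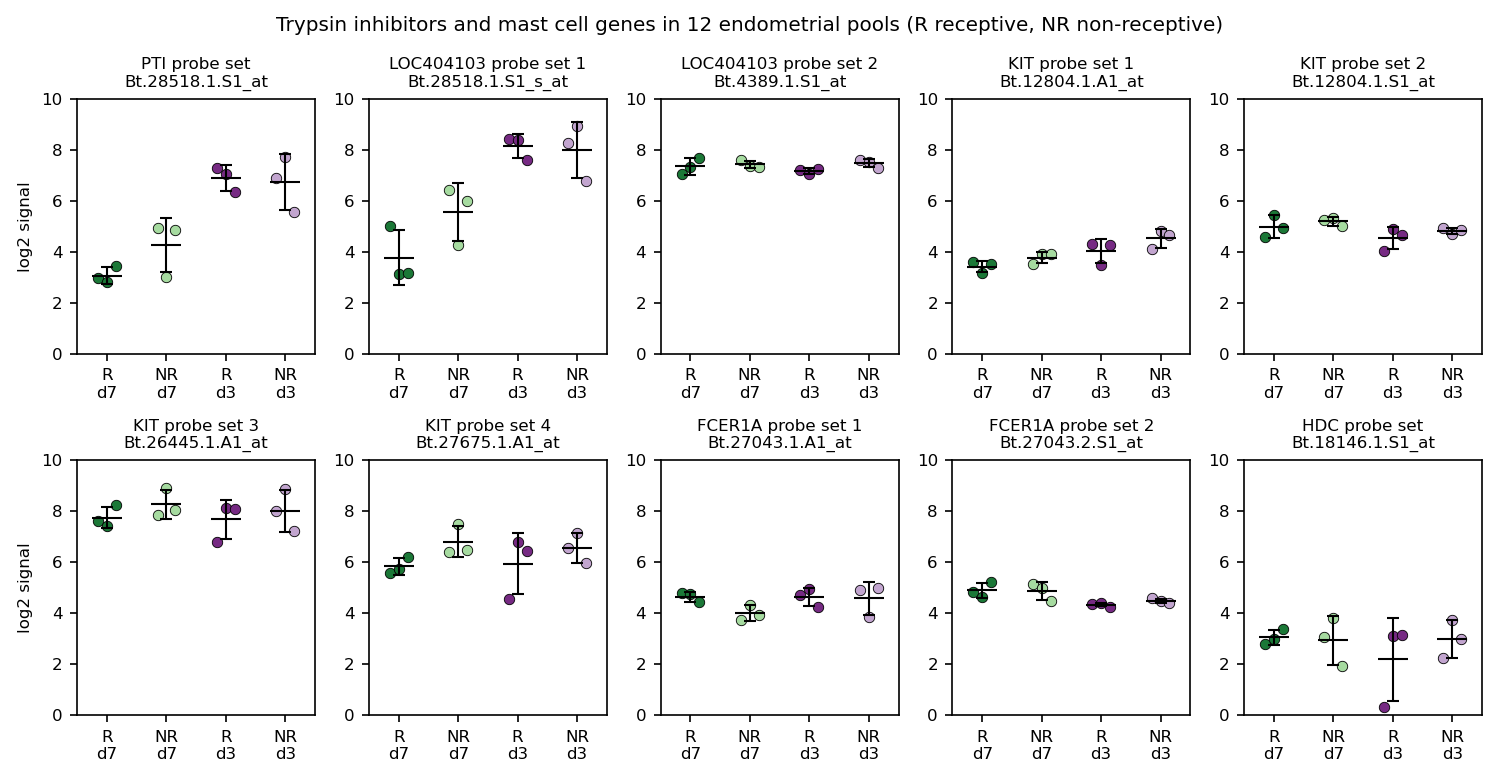
Log2 signal (y axis) of the 10 member probe sets in each of the 12 pools, grouped by receptivity (R receptive, NR non-receptive) and day (d7, d3), with points for pools, horizontal lines for group means and bars for SD (n = 3). The PTI probe set and LOC404103 probe set 1 lay lower in all 6 pools of day 7 (highest 4.91 and 6.43) than in any pool of day 3 (lowest 5.54 and 6.78), while the pools of both days overlapped for the other 8 probe sets.

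KIT, the receptor tyrosine kinase that mast cells need for survival, was measured by 4 probe sets. The brightest, KIT probe set 3, read 7.61, 7.43 and 8.23 in receptive and 7.84, 8.92 and 8.07 in non-receptive pools of day 7. On day 3 it read 6.81, 8.14 and 8.10 in receptive and 8.0, 8.86 and 7.21 in non-receptive pools. The days overlapped widely, with 8.02 ± 0.53 on day 7 and 7.85 ± 0.73 on day 3 (SD, n = 6 each) and a difference of 0.16 (SE 0.35).

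KIT probe set 4 had 5.57, 5.73 and 6.21 in receptive and 6.42, 7.5 and 6.48 in non-receptive pools of day 7, and 4.57, 6.80 and 6.44 in receptive and 6.55, 7.14 and 5.98 in non-receptive pools of day 3. Its day difference was 0.07 (SE 0.39). Both of these probe sets had their lowest value in receptive day 3 pool 1, the pool with the actin gap of 3.11, whose part in the low values was not tested. These KIT probe sets followed each other closely over the pools: after each was centred on its own mean, their root mean square difference was 0.298, the second smallest among the 45 pairs of members. Within a day they had r = 0.93 on day 7 (exact permutation p = 0.0181, adjusted p = 0.407, rho = 0.77, exact p = 0.103, adjusted p = 0.927, and r = 0.66 without the 2 pools farthest from the median of KIT probe set 3). On day 3 they had r = 0.92 (exact permutation p = 0.00417, adjusted p = 0.188, rho = 0.94, exact p = 0.0167, adjusted p = 0.749, and r = 0.9 without the 2 farthest pools).

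The dimmer KIT probe sets went opposite ways. KIT probe set 1 read 3.58, 3.16 and 3.5 in receptive and 3.5, 3.89 and 3.91 in non-receptive pools of day 7, and 4.29, 3.48 and 4.28 in receptive and 4.11, 4.81 and 4.67 in non-receptive pools of day 3. It averaged 3.59 ± 0.28 on day 7 and 4.27 ± 0.47 on day 3 (SD, n = 6 each), a difference of -0.68 (SE 0.18) with overlap between the days through receptive day 3 pool 2. KIT probe set 2 read 4.56, 5.44 and 4.94 in receptive and 5.23, 5.34 and 4.99 in non-receptive pools of day 7, and 4.04, 4.90 and 4.65 in receptive and 4.92, 4.70 and 4.86 in non-receptive pools of day 3. Its difference was 0.41 (SE 0.18), with 5 of 6 pools of day 7 above the highest pool of day 3. With 1 probe set lower, 1 higher and 2 within their spread, KIT had no common direction between the days.

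FCER1A, whose product binds IgE on mast cells and basophils, was measured by 2 dim probe sets. Number 1 read 4.79, 4.74 and 4.43 in receptive and 3.73, 4.34 and 3.93 in non-receptive pools of day 7, and 4.71, 4.94 and 4.26 in receptive and 4.91, 3.83 and 4.99 in non-receptive pools of day 3. Number 2 read 4.83, 4.62 and 5.23 in receptive and 5.16, 4.97 and 4.46 in non-receptive pools of day 7, and 4.36, 4.40 and 4.26 in receptive and 4.58, 4.47 and 4.41 in non-receptive pools of day 3. Their day differences were -0.28 (SE 0.22) and 0.47 (SE 0.14), of opposite sign. In the second of them, 5 of 6 pools of day 7 lay above the highest pool of day 3, and the exception was non-receptive pool 3.

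HDC, measured by 1 probe set, was dim, with 2.80, 3.00 and 3.37 in receptive and 3.08, 3.80 and 1.91 in non-receptive pools of day 7. On day 3 it read 0.30, 3.11 and 3.16 in receptive and 2.25, 3.75 and 2.98 in non-receptive pools. The value of 0.30 came from receptive day 3 pool 1, close to the floor of 0 of the deposited table. The day difference was 0.40 (SE 0.54), and leaving out 1 pool at a time moved it between -0.07 and 0.66.

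Between the days, 9.44% of all probe sets were lower on day 7 and 14.2% passed in either direction, at an adjusted p under 0.05 in limma. The members are not counted against these shares, since their choice used this contrast. Over all probe sets the 3412 calls comprised 1144 higher and 2268 lower on day 7, and 1601 higher and 1562 lower after each array was centred on its median. The pools of the days did not overlap for 2 members, both inhibitor probe sets, against 7.72% of all probe sets. The 7 mast cell probe sets differed between the days by -0.68 to 0.47, with a median of 0.16, 5 above 0 and 2 below, and the median over all probe sets was -0.05.

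**Figure D2:**
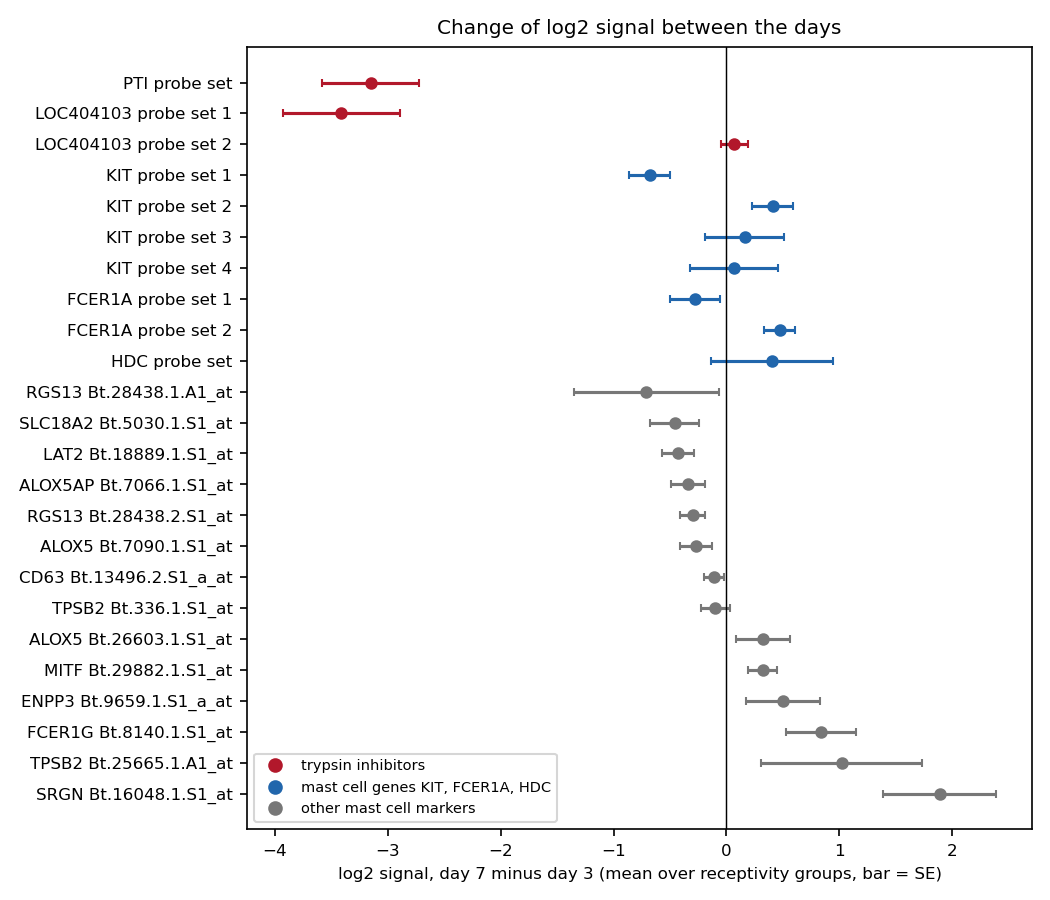
Difference of log2 signal between day 7 and day 3 (x axis, day 7 minus day 3, averaged over receptivity groups) with its SE, for the 3 inhibitor probe sets, the 7 probe sets of KIT, FCER1A and HDC, and all probe sets of 11 other mast cell markers. The PTI probe set and LOC404103 probe set 1 lay at -3.15 and -3.41, whereas the mast cell probe sets lay between -0.68 and 0.47.

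The profile of PTI over the 12 pools was nearest to that of LOC404103 probe set 1, with a root mean square difference of 0.551 after centring. It differed by 1.78 from LOC404103 probe set 2 and by 1.5 to 2.23 from the mast cell probe sets, where the PTI profile itself had a root mean square of 1.77 about its mean. Apart from the members, the 5 named genes nearest to PTI were TNXB (0.621), an extracellular matrix protein, ADGRL4 (0.63), an adhesion receptor of endothelial cells, DUSP12 (0.64), a phosphatase, COLEC12 (0.658), a scavenger receptor of endothelial cells, and DCLK1 (0.665), a protein kinase. They were taken from 12667 probe sets with a single gene symbol and no value at 0, keeping the nearest probe set of each gene, and all 5 were lower on day 7, with differences from -3.27 for DUSP12 to -2.1 for DCLK1, as likeness to PTI requires.

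The genes nearest to the mast cell genes were others. For the brightest KIT probe set they were SEMA6D, EFEMP1, ST8SIA4, TSPAN12 and PPP4R4 (0.257 to 0.302), and for the brighter FCER1A probe set FAM151B, CMPK1, RABL3, PRICKLE1 and YJU2B (0.124 to 0.178). For HDC they were MYL11, ADH4, SPTSSB, GP2 and TNIP1 (0.461 to 0.544). For LOC404103 probe set 2, whose own root mean square was 0.202, the nearest were DERL3, OPN1LW, GPS2, PAG7 and HTR1A (0.110 to 0.127). No gene stood in more than 1 of these 5 groups of 5. Nothing is read from this, since each group holds 5 genes taken from 12667 probe sets. The measure also depends on how widely a profile varies, and the root mean square was 1.77 for PTI.

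**Figure D3:**
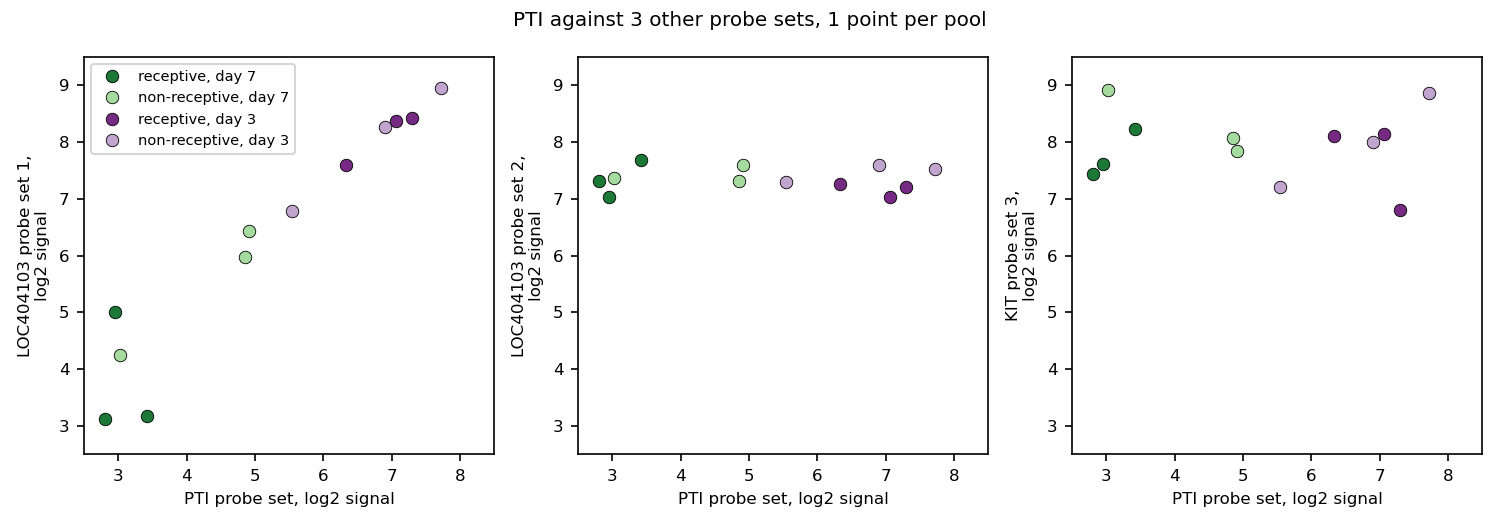
Log2 signal of the PTI probe set (x axis) against that of LOC404103 probe set 1, LOC404103 probe set 2 and the brightest KIT probe set (y axes), with 1 point per pool coloured by group. LOC404103 probe set 1 ran along with PTI from 3.12 to 8.95, while the second stayed between 7.04 and 7.69 at every level of PTI.

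Within a day, members were compared over 6 pools, because the days separate the pools. Where r is given without 2 pools, these were the farthest from that day's median of the first probe set of the pair. Over 45 pairs on each day, 90 relations in all, none passed after Benjamini-Hochberg adjustment. At an unadjusted exact permutation p under 0.05 there were 5 by Pearson's r and 4 by Spearman's rho. On day 3, PTI and LOC404103 probe set 1 had r = 0.99 (exact permutation p = 0.00139, adjusted p = 0.125, and 0.97 without the 2 pools farthest from the median) and rho = 1.0 (exact p = 0.00278, adjusted p = 0.25). On day 7 the same pair had r = 0.81 (exact permutation p = 0.0722, adjusted p = 0.862) and rho = 0.77 (exact p = 0.103, adjusted p = 0.927), and r was -0.25 without the 2 farthest pools. Those were the pools of highest PTI on day 7 (4.91 and 4.85). The pools left spanned only 2.80 to 3.42 in PTI, so the value without them cannot tell whether the relation holds.

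Between PTI and the 7 mast cell probe sets, r ran from -0.94 to 0.35 on day 7 and from -0.48 to 0.42 on day 3. The value of -0.94 was with FCER1A probe set 1 (exact permutation p = 0.0139, adjusted p = 0.407, rho = -0.89, exact p = 0.0333, adjusted p = 0.749), and r was -0.61 without the 2 farthest pools. On day 3 the same pair had r = -0.48 (exact permutation p = 0.328, adjusted p = 0.92) and rho = -0.60 (exact p = 0.242, adjusted p = 0.959). FCER1A probe set 2 had r = -0.02 and rho = 0.31 with PTI on day 7, and r was 0.97 without the 2 farthest pools. The permutations ran over all 6 pools of a day, so a difference between the receptivity groups can enter these values. On day 7 the receptivity groups did not overlap for FCER1A probe set 1. Each receptivity group holds 3 pools of a day, too few for a relation within it.

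Receptivity gave no call in any member. Of 40 tested values (for each of 10 probe sets, the receptivity difference of day 7, that of day 3, their average, and how far the day changes of both receptivity groups differed), 0 had an adjusted p under 0.05 in limma, 2 had an unadjusted p under 0.05, and the lowest adjusted p was 0.665. Over all probe sets the calls were equally scarce: 0.0% on day 7, 0.0125% on day 3, 0.00416% averaged over the days and 0.0% for the difference between the day changes. At an unadjusted p under 0.05 in limma there were, in the same order, 1396, 1264, 1773 and 813 of 24016 probe sets. These tests leave wide intervals, which are given below for the members that the comparison turns on.

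The largest receptivity differences were those of the inhibitors on day 7. The PTI probe set averaged 3.06 ± 0.32 in receptive and 4.26 ± 1.07 in non-receptive pools, a difference of -1.2 (SE 0.61, 95% interval -2.57 to 0.17, adjusted p = 0.821 in limma). LOC404103 probe set 1 averaged 3.77 ± 1.07 in receptive and 5.55 ± 1.15 in non-receptive pools, a difference of -1.79 (SE 0.73, 95% interval -3.42 to -0.15, adjusted p = 0.821 in limma). The groups overlapped in both, through non-receptive pool 2, which read 3.02 and 4.25. On day 3 the differences were 0.17 (95% interval -1.2 to 1.54) for PTI and 0.14 (-1.50 to 1.77) for LOC404103 probe set 1, with adjusted p = 0.986 and 0.99 in limma.

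The day 7 minus day 3 difference of PTI was -3.84 in receptive and -2.47 in non-receptive pools. Their difference was -1.37 (SE 0.87, 95% interval -3.30 to 0.56, adjusted p = 0.999 in limma). For LOC404103 probe set 1 the day differences were -4.37 in receptive and -2.44 in non-receptive pools, which differed by -1.92 (SE 1.03, 95% interval -4.23 to 0.38, adjusted p = 0.999 in limma). The lower signal on day 7 was thus present in both receptivity groups, and a difference in its size was not established. Without the 3 pools of high spike-in signal the PTI values were -1.82 on day 7 and -2.41 for the difference between the day changes (adjusted p = 0.876 and 0.837 in limma). LOC404103 probe set 2 differed by -0.08 on day 7 (95% interval -0.45 to 0.29) and by -0.30 on day 3 (-0.68 to 0.07, adjusted p = 0.936 in limma), although its receptive pools of day 3 (7.04 to 7.26) all lay below the non-receptive ones (7.30 to 7.59).

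All 4 KIT probe sets had lower means in receptive pools on both days, and none passed. The differences on day 7 were -0.35, -0.21, -0.52 and -0.96 for KIT probe sets 1, 2, 3 and 4, and on day 3 they were -0.51, -0.30, -0.34 and -0.62. For KIT probe set 4 the groups of day 7 did not overlap, with 5.57 to 6.21 in receptive and 6.42 to 7.5 in non-receptive pools (95% interval of the difference -2.21 to 0.28, adjusted p = 0.823 in limma). Averaged over days the lowest adjusted p of any member was that of KIT probe set 1, with -0.43 (SE 0.18, 95% interval -0.84 to -0.02, adjusted p = 0.665 in limma). Without the 3 pools of high spike-in signal it was -0.20, and its day 3 difference of -0.51 became -0.11 without them and -0.25 without receptive day 3 pool 2 alone. An exact permutation of receptivity within days, two-sided over 400 assignments with a smallest possible p of 0.005, gave p = 0.045 for it, 0.08 for KIT probe set 4 and 0.15 to 0.69 for the other 8 probe sets (PTI 0.325). These 10 exact p-values are not adjusted, and the KIT probe sets share their target gene. They are not separate observations of KIT.

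FCER1A and HDC had mixed signs. FCER1A probe set 1 averaged 4.65 ± 0.20 in receptive and 4.0 ± 0.31 in non-receptive pools of day 7, without overlap (4.43 to 4.79 and 3.73 to 4.34), a difference of 0.65 (95% interval -0.04 to 1.35, adjusted p = 0.821 in limma). On day 3 it differed by 0.06, and FCER1A probe set 2 differed by 0.03 on day 7 and by -0.15 on day 3, where its receptive pools (4.26 to 4.40) lay just below the non-receptive ones (4.41 to 4.58). HDC differed by 0.13 on day 7 (95% interval -1.57 to 1.82) and by -0.80 on day 3 (-2.50 to 0.89), and without receptive day 3 pool 1 the day 3 value was 0.14. The groups did not overlap for 2 of the 10 members on day 7 and for 2 on day 3, while over all probe sets this was so for 9.23% on day 7 and 10.8% on day 3. With 3 pools against 3, an exact permutation test within a day cannot go below p = 0.1.

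**Figure D4:**
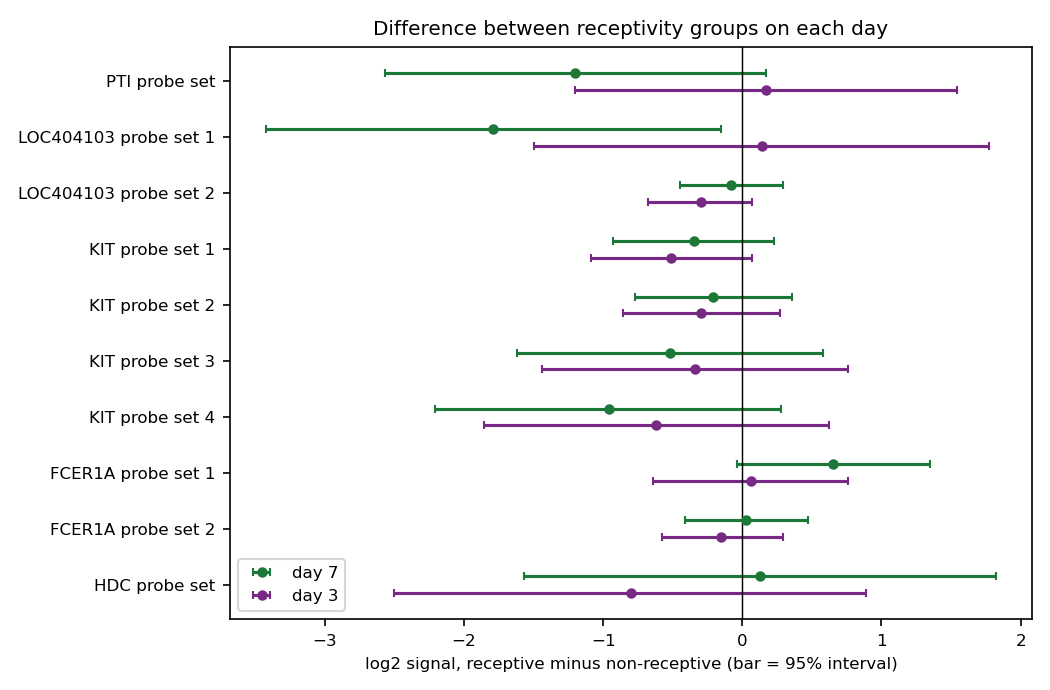
Difference of log2 signal between receptive and non-receptive pools (x axis, receptive minus non-receptive) with its 95% interval from limma, for the 10 member probe sets on day 7 and on day 3. The interval left out 0 for LOC404103 probe set 1 on day 7 alone (-3.42 to -0.15), where the adjusted p was 0.821.

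Other genes of mast cells were read from a list of 26 markers, 11 of which had a probe set with their symbol. MS4A2, CPA3 and CMA1, the beta chain of the IgE receptor and the main granule proteases beside tryptase, were not measured by a named probe set. Counting the brightest probe set of each gene, 1 of the 11 rose on day 7 and 0 fell, and 14.2% of all probe sets passed in either direction. At an unadjusted p under 0.05 in limma there were 6 of the 11, and 7388 of 24016 over all probe sets. The median difference was -0.11 against -0.05 over all probe sets. The one that rose was SRGN, the serglycin core protein of granules in mast cells and many other leukocytes, with 8.09 to 11.30 on day 7 and 7.68 to 8.48 on day 3, a difference of 1.89 (SE 0.50, adjusted p = 0.0327 in limma). It passed under 9 of 19 alternative settings, and leaving out any of 9 of the 12 pools ended the call (adjusted p up to 0.0732 over the settings). Over those settings 0 to 2 of the 11 rose and 0 to 2 fell. Without non-receptive day 7 pool 3, for instance, 0 rose and 2 fell, LAT2 (-0.43 over all pools, adjusted p = 0.0609 in limma) and RGS13 (-0.30, adjusted p = 0.0891). LAT2 fell under 3 of 19 alternatives, RGS13 under 1 of 18 and ALOX5AP (-0.34, adjusted p = 0.145 in limma) under 1 of 18. In the other direction, FCER1G (0.84, adjusted p = 0.101 in limma) rose under 2 of 18 and MITF (0.32, adjusted p = 0.128) under 1 of 18. All of these were named after their values were seen. TPSB2, a tryptase and the defining granule protease of mast cells, had 2 probe sets with differences of 1.02 (SE 0.71, adjusted p = 0.371) and -0.10 (SE 0.13, adjusted p = 0.652). The first of them ranged from 2.5 to 5.79 on day 7 and from 1.37 to 5.40 on day 3, a wide spread within each day.

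KITLG, which encodes stem cell factor, the ligand of KIT, differed by -0.11 between the days (SE 0.09, adjusted p = 0.447), with 4.74 to 5.24 on day 7 and 4.85 to 5.24 on day 3. Of the 4 measured genes for the KIT ligand, histamine receptors and histamine breakdown, 0 rose and 0 fell in limma, and 0 had an unadjusted p under 0.05. Over all probe sets 14.2% passed in either direction, and lists this short cannot tell 0 calls from that share. None passed among 5 measured markers of other cells that carry KIT, such as melanocytes (1 had an unadjusted p under 0.05, namely CD34 with a difference of -1.19 and adjusted p = 0.0517, which fell under 3 of 18 alternatives), or among 2 measured markers of dendritic cells, basophils and eosinophils (0 had one). Only 2 of 17 genes of that last group had a named probe set, so these cells were hardly covered.

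Kunitz inhibitors other than the members had no call between the days, where 14.2% of all probe sets passed in either direction. Of 9 measured genes, among them those for the inhibitors of hepatocyte growth factor activators, the tissue factor pathway inhibitors and the trophoblast Kunitz domain proteins, 0 rose and 0 fell in limma (1 had an unadjusted p under 0.05), and their median difference was -0.02 (range -0.14 to 0.91). In the RefSeq annotation of assembly ARS-UCD2.0, PTI and LOC404103 lie on chromosome 13 with 3 genes between them. Within 15 genes to either side of the pair, a window set after seeing the data, 5 of 33 neighbouring genes were measured by 6 probe sets, including TKDP1, TKDP2 and TKDP4. Of these 6 probe sets, 0 passed between the days in limma and 0 had an unadjusted p under 0.05, with differences from -0.50 (TKDP1, adjusted p = 0.253) to 0.21 (TKDP4, adjusted p = 0.299). Lists of 9 genes and 6 probe sets are too short to tell 0 calls from the 14.2% of all probe sets.

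Among 12 other inhibitors of serine proteases, 1 rose and 0 fell, where 14.2% of all probe sets passed in either direction. The 1 was SERPINB1, an inhibitor of neutrophil proteases, with 11.83 to 12.04 on day 7 and 11.35 to 11.72 on day 3. Its difference was 0.41 (SE 0.08, adjusted p = 0.013 in limma), and it passed under all 19 alternatives. Under the alternatives 1 to 3 of the 12 rose and 0 to 1 fell, with 3 higher after median centring, under the replicate block or with the trended prior, and 2 higher and 1 lower with the low-signal filter. SERPINF2 had probe sets that disagreed: the brighter differed by 0.14 (adjusted p = 0.265) and the dimmer fell (-0.39, adjusted p = 0.0335). The median difference of these 12 was 0.20. Against the same 14.2% of all probe sets, of 18 trypsin-like proteases and their receptor, the possible targets of such inhibitors, 0 rose and 1 fell. This was KLK10, a kallikrein-related peptidase, with 5.29 to 7.79 on day 7 and 8.03 to 8.82 on day 3, a difference of -2.17 (SE 0.38, adjusted p = 0.0071). It passed under 18 of 19 alternatives, and without the 3 pools of high spike-in signal its adjusted p was 0.0571. Over all 19 settings 0 to 2 of the 18 rose and 0 to 2 fell. PRSS8, a membrane-bound serine protease, just missed the threshold at 0.49 (adjusted p = 0.0528) and rose under 8 of them. The median of the 18 was 0.00.

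Markers of the stroma were mostly lower on day 7. Of 12 stromal fibroblast markers, 0 rose and 4 fell on day 7, against 9.44% of all probe sets that were lower: FBLN1 with a difference of -1.55 (adjusted p = 0.003 in limma), THY1 with -0.45 (adjusted p = 0.0279), COL3A1 with -1.73 (adjusted p = 0.0297) and COL6A1 with -1.63 (adjusted p = 0.0321). FBLN1 encodes fibulin 1 and the collagen genes encode matrix fibres of the stroma, and THY1 is a fibroblast surface antigen. The dimmer probe sets of FBLN1 (-1.42, adjusted p = 0.00266 in limma) and COL3A1 (-1.98, adjusted p = 0.0322) also fell. Those of COL6A1 did not pass (0.18 and -0.30, adjusted p = 0.589 and 0.326 in limma). FBLN1 passed under all 19 alternatives, COL3A1 under 11, THY1 under 10 and COL6A1 under 9, and leaving out any of 7, 7 and 9 single pools ended the calls of COL3A1, THY1 and COL6A1. The number of markers that fell ran from 1 (without pool 3 of non-receptive day 7 or of receptive day 3, or without pool 1 of non-receptive day 3) to 7 (with the low-signal filter). In all, 11 of the 12 were below 0 with a median difference of -0.98 (range -2.25 to 0.04). The mean of the centred markers per pool ran from -0.939 to -0.211 in receptive and from -0.798 to 0.061 in non-receptive pools of day 7, and from 0.461 to 0.521 in receptive and from -0.549 to 1.356 in non-receptive pools of day 3. The day 3 pool with the lowest stromal score, non-receptive pool 3 at -0.549, was also the day 3 pool with the lowest PTI (5.54) and LOC404103 probe set 1 signal (6.78), and non-receptive pool 2, with the highest score at 1.356, had the highest of both (7.73 and 8.95). On day 7 this order did not hold throughout: receptive pool 2 had the highest score of its group (-0.211, against -0.939 and -0.918) and the lowest PTI (2.80) and LOC404103 probe set 1 signal (3.12) of all 12 pools, although non-receptive pool 2 had the lowest score (-0.798) and the lowest of both signals within its group. On day 7 all 12 stromal markers were lower in receptive pools, with a median difference of -0.28 and 0 calls, as were PTI and LOC404103 probe set 1. None of the 12 markers was at 0 in any pool. The part of stromal content in the inhibitor signals was not tested.

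**Figure D5:**
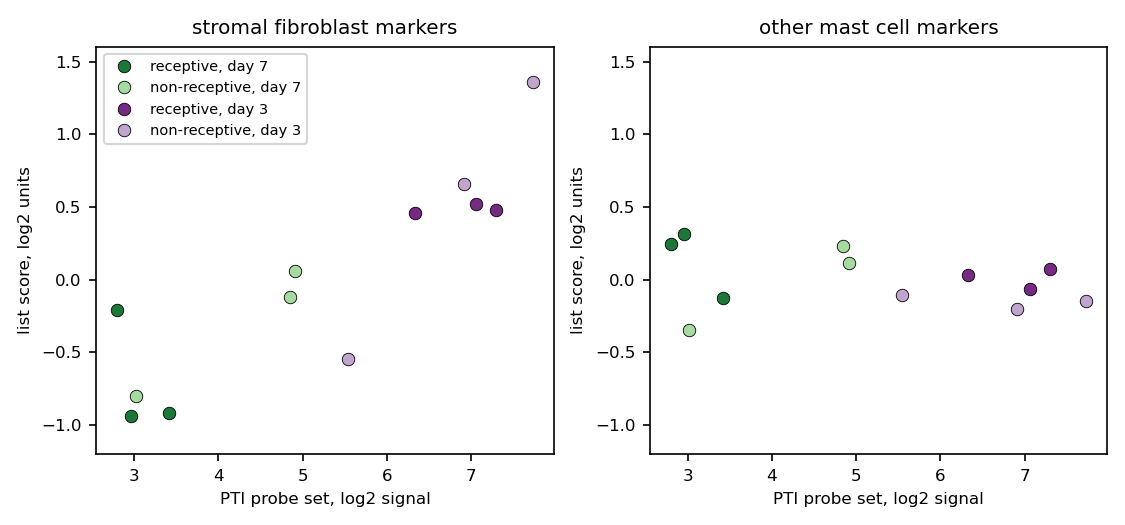
Log2 signal of the PTI probe set (x axis) against the mean centred log2 signal of 12 stromal fibroblast markers (left) and of 11 other mast cell markers (right), with 1 point per pool. The stromal score ran from -0.939 to 0.061 on day 7 and from -0.549 to 1.356 on day 3. The days overlapped through non-receptive day 3 pool 3, at -0.549. The mast cell score stayed between -0.348 and 0.314 over both days, also with overlap.

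Of 9 measured markers of endometrial epithelium, 0 rose and 2 fell on day 7, against 9.44% of all probe sets that were lower. The 2 were HOXA10, a homeobox gene of the uterus, with a difference of -1.33 (adjusted p = 0.0271 in limma), and ESR1, the estrogen receptor, with -0.63 (adjusted p = 0.0499), both also expressed in stroma. They passed under 12 and 5 of 18 alternatives, and their calls ended without any of 5 and 9 single pools. The median of the 9 was -0.12. By their brightest probe sets, KRT8, KRT18, KRT19, EPCAM, CDH1 and MUC1 did not pass, with differences from -0.22 (CDH1) to 0.38 (KRT18). A dimmer CDH1 probe set was lower by the test (-0.70, adjusted p = 0.0255), while the brightest was not (-0.22, adjusted p = 0.151). As a check of the tissue, EPCAM, KRT18, KRT19, CDH1 and MUC1 read 10.82 or above in all 12 pools by their brightest probe sets. The dimmer CDH1 probe set read 6.57 to 7.25 on day 7 and 7.26 to 8.08 on day 3. KRT8 read 5.89 to 6.68, near or below the array medians, and ESR1 (2.85 to 4.45), PGR (3.21 to 5.28) and HOXA10 (3.12 to 6.04) were dim. The mast cell score, computed like the stromal one, ran from -0.128 to 0.314 in receptive and from -0.348 to 0.23 in non-receptive pools of day 7, and from -0.066 to 0.071 in receptive and from -0.2 to -0.109 in non-receptive pools of day 3, so the pools of the days overlapped. This score averages genes of opposite day differences, from -0.46 for SLC18A2 to 1.89 for SRGN. TPSB2 enters it by its brightest probe set (-0.10) and not by the other (1.02). The score is thus no measure of mast cell number. In none of the 9 lists did any gene pass in the receptivity contrasts or in the difference between the day changes (lowest adjusted p 0.571 in limma, with 16 of 328 values at an unadjusted p under 0.05). Over all probe sets, 813 to 1773 of 24016 had such an unadjusted p in each of these contrasts.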

How the data were processed

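The authors deposited 1 table of log2 signals for 24128 probe sets in 12 pools, between 0 and 14.06. PLIER, Affymetrix Expression Console and GCOS 1.1.1 are named in the submitters' processing notes. What each did and how arrays were scaled were not given in the sources used here. In all, 112 control probe sets were left out. Limma 3.58.1 (lmFit, eBayes, R 4.3.3) was fitted to all 12 pools with a mean per group, two-sided, with Benjamini-Hochberg adjustment over 24016 probe sets and a threshold of 0.05, and was tested on simulated data. The number of arrays limits the precision. Genes were named from the platform annotation.

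Members and the 9 gene lists (153 entries, 82 measured) were chosen with earlier results of these data known. Named by rule were all member probe sets, at most 4 list genes per list and contrast that passed, TPSB2 and KITLG. For each member gene's brightest probe set, the 5 genes of smallest root mean square difference were also named. Some list genes outside this rule, such as PRSS8, CD34 and LAT2, were named after their values were seen. Epithelial markers were also named as a check of the tissue. Lists were counted by the brightest probe set of each gene. Alternatives were median centring, quantile normalization, a low-signal filter, leaving out probe sets with values at 0, a trended robust prior, a replicate block and leaving out each pool. Leaving out the 3 pools of high spike-in signal was chosen after seeing the data.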

Additional observations from a re-analysis of the deposited data

How the results depend on the processing

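Of 582 alternative values of the members' receptivity differences and inhibitor interactions, 0 had an adjusted p under 0.05 (lowest 0.499, limma). The day difference stayed between -3.45 and -2.84 for PTI and between -3.71 and -3.08 for LOC404103 probe set 1 when 1 pool was left out, and between -3.15 and -2.55 and between -3.41 and -2.78 under the other settings. Without 1 pool, receptivity differences changed sign on day 3 for PTI (-0.42 to 0.67), LOC404103 probe set 1 (-0.47 to 0.61), KIT probe set 3 (-0.75 to 0.10), KIT probe set 4 (-1.05 to 0.06), FCER1A probe set 1 (-0.31 to 0.27, and -0.47 without the 3 pools of high spike-in signal) and HDC (-1.29 to 0.14). On day 7 they did so for LOC404103 probe set 2 (-0.25 to 0.08), KIT probe set 2 (-0.44 to 0.00), FCER1A probe set 2 (-0.17 to 0.18) and HDC (-0.38 to 0.56), and averaged over days for FCER1A probe set 2 (-0.16 to 0.02) and HDC (-0.59 to 0.13). Other members also moved by over 1.5 times without changing sign, such as KIT probe set 3 averaged over days (-0.43, and -0.17 without the 3 spike-in pools). Counts over all probe sets moved as follows, and the cause was not tested. The 3 receptivity calls of day 3 became 1 after median centring or quantile normalization and 0 with the low-signal filter, the replicate block, the trended robust prior or probe sets at 0 left out, and 0 to 5 without 1 pool. The 0 calls of day 7 became 1 without the 3 spike-in pools and 0 to 2 without 1 pool. The 1 averaged call became 0 with the low-signal filter, the block, the trended prior, probe sets at 0 left out or the spike-in pools left out, and 0 to 3 without 1 pool, and the interaction gave 0 to 2. The 3412 day calls became 1765 without the 3 spike-in pools and, without 1 pool, 1861 to 3617 (for non-receptive pool 1 this was 1861 on day 3 and 2146 on day 7, and for receptive pool 3 of day 3 it was 2190). Whether equal pool numbers pair the pools was not settled. Over all pairs of groups, deviations from the group means correlated by -0.179 to 0.136 for equal and by -0.149 to 0.155 for different numbers. Between the days, receptive pools of equal number gave 0.136, 0.052 and 0.122, and those of different number -0.149 to 0.031. Non-receptive pools of equal number gave 0.018, 0.028 and -0.038, and those of different number -0.078 to 0.062. Under the replicate block the day contrast gave 3029 calls. The low-signal filter kept 2 members, KIT probe set 3 and LOC404103 probe set 2, and the others then have no value, and the dim FCER1A and HDC signals limit what could be detected.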
